A study of Mus with 50 samples.

Results

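Periportal and urea cycle genes were followed as a set of 10 named genes: Nags, Cps1, Otc, Ass1, Asl and Arg1 of urea synthesis, and Gls2, Hal, Cyp2f2 and Hsd17b13 of the hepatocytes around the portal tract. Each gene was read from the probe set that carried its symbol alone and, where there were several, from the one with the highest median. By this rule 9 of the 10 genes had values, out of 22180 named genes on the array, and Gls2 was not analysed here. The values come from 50 livers of 50 female mice, 1 Affymetrix whole-transcript array each, given as log2 signal. All mice were backcross animals of C57 and FVB origin, all carried the MMTV-Neu transgene (the Neu proto-oncogene under a mouse mammary tumour virus promoter, which is active mainly in mammary epithelium), and breast cancer was entered as a comorbidity for every mouse. The series set out to compare livers from both ends of a scale of ageing, but the labels used here gave every mouse the same group and no ageing grade, age or treatment, and no liver without the transgene was analysed. The results therefore describe levels and covariation over livers, not a contrast between groups.

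The liver lobule is zonated. Blood enters at the portal tract and leaves at the central vein, and hepatocytes near the portal tract turn ammonia into urea while a thin layer around the central vein captures what is left as glutamine. In urea synthesis Nags makes the activator that Cps1 needs, Cps1 fixes ammonia as carbamoyl phosphate, Otc joins that to ornithine inside the mitochondrion, and Ass1, Asl and Arg1 complete the cycle in the cytosol. The enzymes are known to respond to protein intake, fasting hormones and glucocorticoids.

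Hepatocyte markers were read beside the tissue label. Of 16 listed genes 15 were measured, all at or above the median level of the array (3.61 on the log2 scale). Their gene medians ran from 8.32 to 13.46. All 14 macrophage, 13 endothelial and 14 stellate markers reached that level too, with gene medians up to 9.12, 9.58 and 10.23. No array was identical to another, and the highest correlation between 2 livers was 0.988. Livers of 4 animals stood apart from the rest, because their median correlation with the other arrays fell below the lower quartile by over 3 interquartile ranges: animals 64 (0.794), 235 (0.857), 84 (0.903) and 87 (0.932). On the hepatocyte score, the mean of the list's values standardised over livers, they lay at -3.56, -1.06, -1.75 and -0.60, against -0.69 to 0.64 in the other 46 livers. Animal 235 also had the highest macrophage score, 4.17 against at most 1.35 in the other 46. Levels, counts of members and the relations described were computed over all 50 livers and over the 46 without these 4. In whole tissue, fewer cells of a type and less RNA per cell cannot be told apart.

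Of the 3 mitochondrial genes Otc had the largest SD over 50 livers and Nags over 46. Nags ranged from 6.68 over a median of 7.69 to 8.28 (SD 0.33, n = 50), and its lowest livers were animals 64 and 235. Over 46 livers its SD was 0.28 and its range 7.02 to 8.28. A second Nags probe set, with a median of 5.77 and an SD of 0.35, had r = 0.67 with the one used. Cps1, the entry enzyme of the cycle, ranged from 10.29 over a median of 12.11 to 12.68 (SD 0.34, n = 50). Without the 4 livers the SD of Cps1 fell to 0.18 and its range to 11.73 to 12.50, a 1.70-fold span over 46 mice, and its SD ranked at percentile 16.3 of all genes at or above the median level, against 66.0 with them. Otc ranged from 9.19 over a median of 11.22 to 11.71 (SD 0.46, n = 50), and over 46 livers from 10.44 to 11.71 (SD 0.26). By the cluster rule given with the processing, Otc was the gene of the set whose 50 values fell into separate clusters. They held 5 livers up to 10.62, the smallest size the rule allows, and 45 livers from 10.77 upward. Animals 64, 84 and 235 had the 3 lowest Otc values, 9.19, 9.78 and 9.91. Without the 4 livers that stood apart, Otc had no separate clusters.

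Among the cytosolic enzymes, Ass1, which joins citrulline to aspartate, ranged from 2.99 over a median of 5.71 to 7.08 (SD 0.74, n = 50), and its SD stayed at 0.60 over 46 livers, percentile 96.7 of genes. Its probe set is uncertain. Gm5424, which RefSeq lists as a transcribed pseudogene and which is known as a copy of Ass1, had a median of 11.08 (SD 0.53), and Ass1 and Gm5424 were correlated at r = 0.65 over 50 livers and 0.48 over 46. Near-identical copies may share signal on such probe sets. Asl, which splits argininosuccinate into arginine and fumarate, ranged from 7.67 over 9.88 to 11.18 (SD 0.53), and Arg1, which releases urea from arginine, from 9.05 over 10.85 to 11.66 (SD 0.37). For both, animal 64 was lowest, animal 235 second lowest and animal 84 highest. Over 46 livers the SD of Asl was 0.32 (range 9.34 to 10.81) and that of Arg1 0.24 (range 10.47 to 11.45).

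Of the other periportal genes, Hal, the first enzyme of histidine breakdown, ranged from 6.64 over a median of 9.69 to 10.26 (SD 0.61, n = 50), with animals 64, 235 and 87 lowest. Over 46 livers its SD was 0.33 and its range 8.80 to 10.26. Cyp2f2, a cytochrome P450 found in periportal hepatocytes, spread widest, from 5.84 over 9.65 to 10.67, a 28.5-fold span (SD 0.93, n = 50). Its SD ranked at percentile 98.7 of genes, and at 97.7 without the 4 livers (SD 0.69, range 7.98 to 10.67). A second Cyp2f2 probe set, with a median of 5.18 and an SD of 0.50, had r = 0.73 with the one used. Hsd17b13, an enzyme of hepatocyte lipid droplets, ranged from 8.33 over 9.50 to 10.52 (SD 0.54, n = 50) and kept an SD of 0.50 over 46 livers. The median SD of the 9 genes was 0.53 against 0.28 for all genes at or above the median level, and 0.32 against 0.23 over 46 livers.

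**Figure D1:**
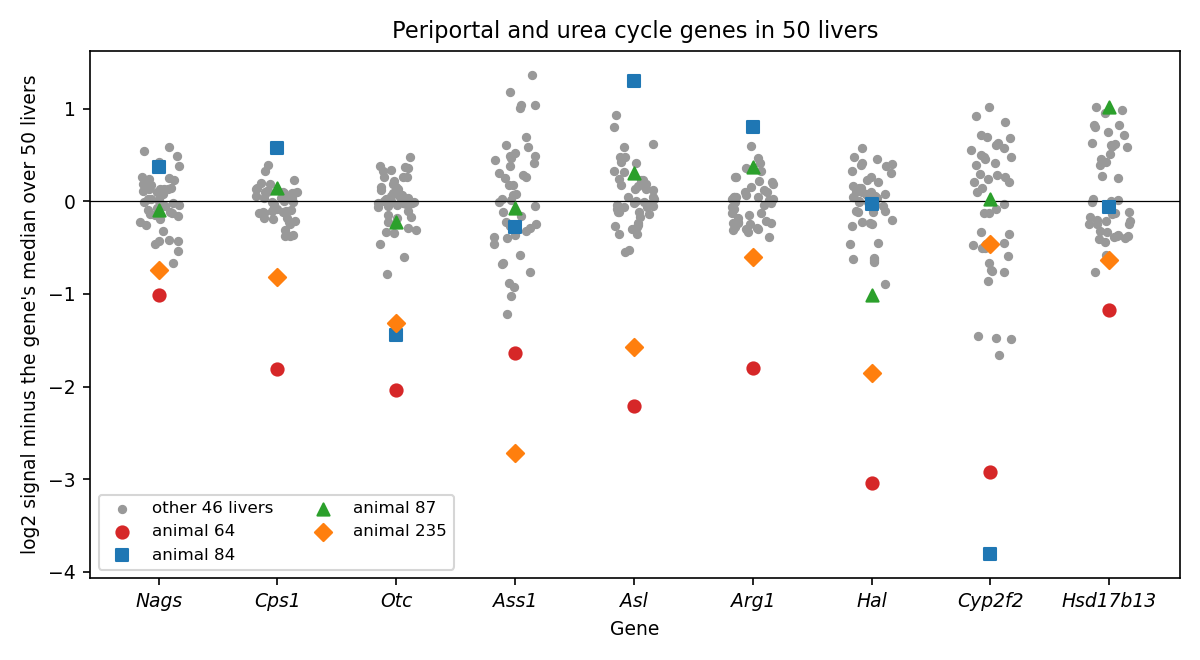
Each point is 1 liver, plotted as the log2 signal minus that gene's median over the 50 livers; coloured symbols mark the 4 livers that stood apart and grey points the other 46. Animal 64 lies at or near the bottom of every column, and animal 84 lies at the top for Cps1, Asl and Arg1 and at the bottom for Cyp2f2.

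The 4 livers did not deviate alike. Animal 64 was below the median for all 9 genes and lowest of all livers for 7, from -1.01 for Nags to -3.05 for Hal on the log2 scale. Across all genes at or above the median level, animal 64 was below the median for 53.9% and the lowest liver for 20.9%. Animal 235 was also below the median for all 9 genes, with the lowest Ass1 (-2.72) and second lowest Hal (-1.86). Across all genes at or above the median level, it was below the median for 51.9% and the lowest liver for 6.54%. Animal 84 showed opposite deviations within the set: Asl was 1.30, Arg1 0.81 and Cps1 0.57 above the median, each the highest of 50 livers, while Cyp2f2 lay at -3.81, the lowest of 50, and Otc at -1.44, the second lowest. In animal 87 the widest deviations were Hsd17b13, 1.02 above the median, and Hal, at -1.01. Animal 87 had a lymphocyte score of 2.85, against at most 2.88 in the other 46 livers. The part of that score was not tested. The hepatocyte score of animals 64, 84 and 235 lay below that of all the other 46 livers, as given above, while that of animal 87 lay within their range; its part in the deviations was not tested.

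The set's covariation was first asked as fits of every gene at or above the median level on the standardised value of each member in turn (limma, Benjamini-Hochberg adjusted p under 0.05 over all genes fitted; a slope is the log2 change of a gene per SD of the predictor). Over 50 livers, 42 of 72 ordered pairs of members passed, all higher together, where 14% of all genes in the same fits passed as higher. Over 46 livers 14 of 72 passed, again all higher, against a background of 2.57%. Here and below, a percentage beside a count of members is the share of all genes that passed in the same fit, in the direction of the members, or in either direction where no member passed. The mean pairwise Pearson r was 0.42 over 50 livers, with 36 of 36 pairs above 0, and 0.13 over 46 livers, with 18 of 36 above 0. Means over pairs, here and below, include those of Otc over 50 livers and of Hsd17b13 over 46. Those values fell into separate clusters, so such pairs pool the clusters.

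The urea cycle enzymes Cps1, Ass1, Asl and Arg1 rose together with and without the livers that stood apart. Among these 4 the mean r was 0.76 over 50 livers and 0.65 over 46, with the lowest of the 6 pairs at 0.51, whereas the other 30 pairs averaged 0.35 and 0.023. This grouping was made after the values were seen and is a description. It rests in part on the Ass1 probe set, which is uncertain. Over 46 livers Gm5424, the copy of Ass1, had r = 0.72 with Cps1, 0.59 with Asl and 0.43 with Arg1. Its r with Hal, outside the grouping, was 0.65. In the fit on Cps1, 7 of 8 other members rose over 50 livers (18.4% of genes higher) and 4 of 8 over 46 (1.15%): Asl, Arg1, Ass1 and Hal. In the fit on Asl, 7 of 8 rose over 50 livers (15.2%) and 4 of 8 over 46 (1.26%), and in the fit on Arg1 6 of 8 (13.6%) and 3 of 8 (1.96%). In the fit on Ass1, 4 of 8 rose over 50 livers (5.92%) and 2 of 8 over 46 (0.289%), namely Cps1 and Asl.

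Asl followed Cps1 most closely. Over 50 livers its slope on Cps1 was 0.49 ± 0.03 (SE; r = 0.91, Spearman's rho = 0.79, both permutation p = 1e-05, the smallest that 100000 permutations can give; limma adjusted p = 1.58e-16). Over 46 livers the slope was 0.25 ± 0.03 (r = 0.77, rho = 0.74, both permutation p = 1e-05, limma adjusted p = 2.95e-06), and r was 0.82 over 50 without the 2 livers farthest from the Cps1 median. Within 4 stretches of animal numbers, which the labels do not call batches, 7 to 79, 84 to 128, 137 to 235 and 253 to 301, the r of Cps1 and Asl over the 46 livers was 0.45, 0.67, 0.84 and 0.83. Arg1 rose with Cps1 by 0.33 ± 0.03 over 50 livers (r = 0.89, rho = 0.72, both permutation p = 1e-05, limma adjusted p = 1.4e-14) and by 0.16 ± 0.03 over 46 (r = 0.70, rho = 0.65, both permutation p = 1e-05, limma adjusted p = 0.000177), with r within stretches of 0.51, 0.76, 0.71 and 0.57. Asl and Arg1, neighbours in the pathway, had r = 0.89 (rho = 0.77) over 50 livers and 0.77 (rho = 0.71) over 46, each with a permutation p of 1e-05, and 0.71 over 46 without the 2 livers farthest from the Asl median. Ass1 rose with Cps1 by 0.47 ± 0.08 over 50 livers (r = 0.64, rho = 0.60, permutation p = 1e-05 and 2e-05, limma adjusted p = 5.1e-06) and over 46 livers by 0.37 ± 0.07 (r = 0.61, rho = 0.62, both permutation p = 2e-05, limma adjusted p = 0.00225), with r within stretches of 0.10, 0.39, 0.70 and 0.81. The 81 relations computed were these 36 pairs and the 45 pairs of a member with a score or the animal number.

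**Figure D2:**
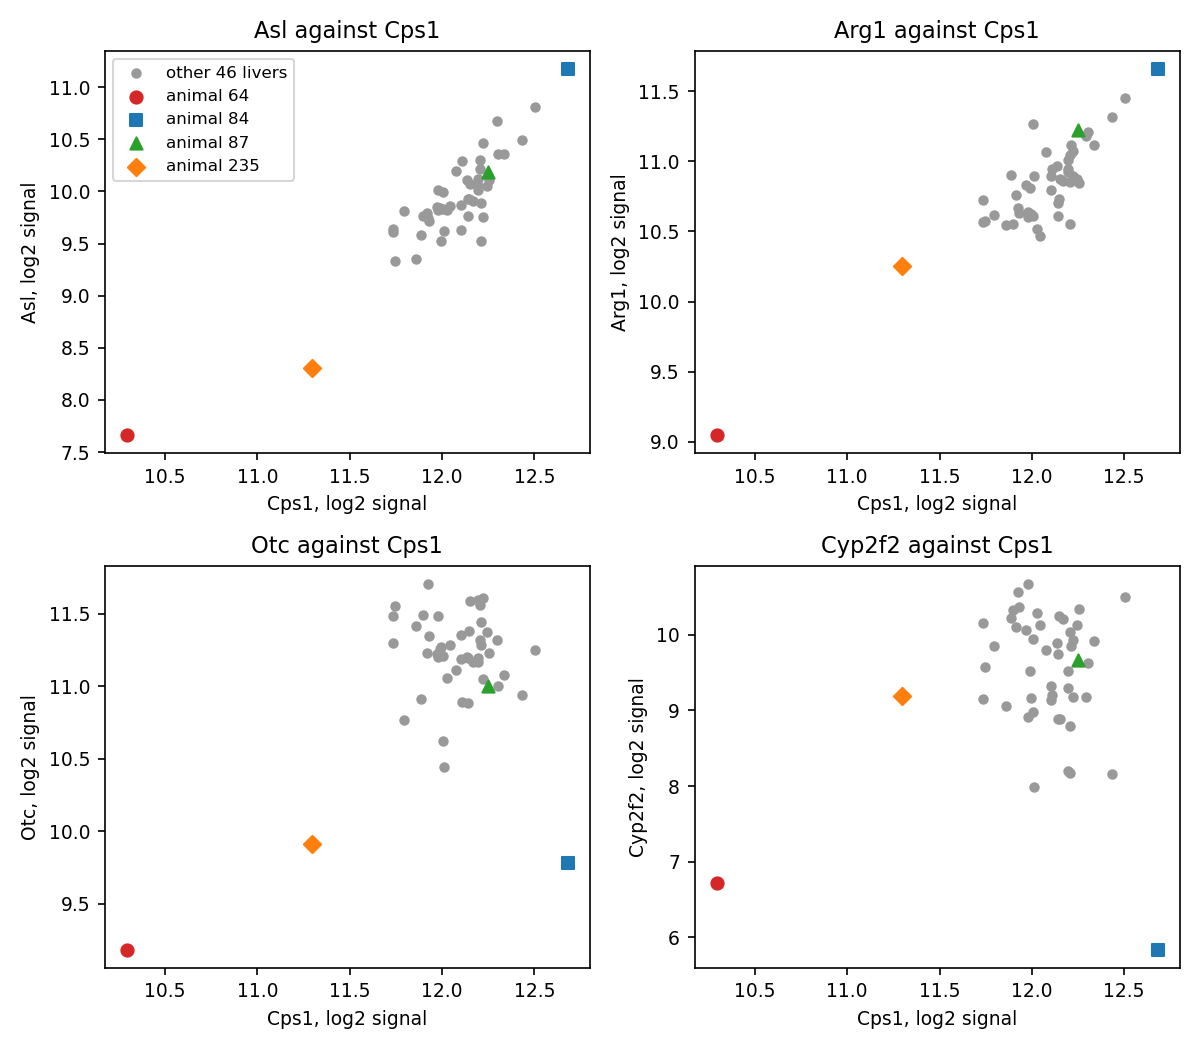
Log2 signal of Asl, Arg1, Otc and Cyp2f2 against Cps1, 1 point per liver, with the 4 livers that stood apart in colour. Asl and Arg1 rise with Cps1 from animal 64 at the lower left to animal 84 at the upper right, whereas animal 84 has the second lowest Otc and the lowest Cyp2f2.

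Otc, the enzyme that uses the product of Cps1, passed with no other member over 46 livers. Because its 50 values fell into clusters, no r over 50 livers is given. Within the upper cluster of 45 livers its r was -0.16 with Cps1, -0.31 with Asl, -0.30 with Arg1 and -0.27 with Ass1, and over the 46 livers -0.062, -0.17, -0.33 and -0.25. In the fit on Otc 6 of 8 members rose over 50 livers (21.5% of genes higher) and 0 of 8 passed over 46 (limma; 16.3% of genes in either direction; 1 of 8 at an unadjusted p under 0.05, Arg1 with a slope of -0.077 ± 0.033). Otc and Cyp2f2, both low in animals 64 and 84, had r = 0.17 in the upper Otc cluster and 0.27 over 46 livers. Of 23 pericentral genes tested, 15 rose with Otc over 50 livers. Over 46 livers 5 rose, 1 fell, the amino acid exchanger Slc1a4, and 17 did not pass, where 16.3% of all genes were called; whether the list differs from other genes was not tested. The 5 were Cyp2c29 (r = 0.73, limma adjusted p = 2.01e-06), Cyp1a2 (0.69, 1.32e-05), Rgn (0.65, 9.17e-05), Aldh1a1 (0.51) and Lect2 (0.46).

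**Figure D3:**
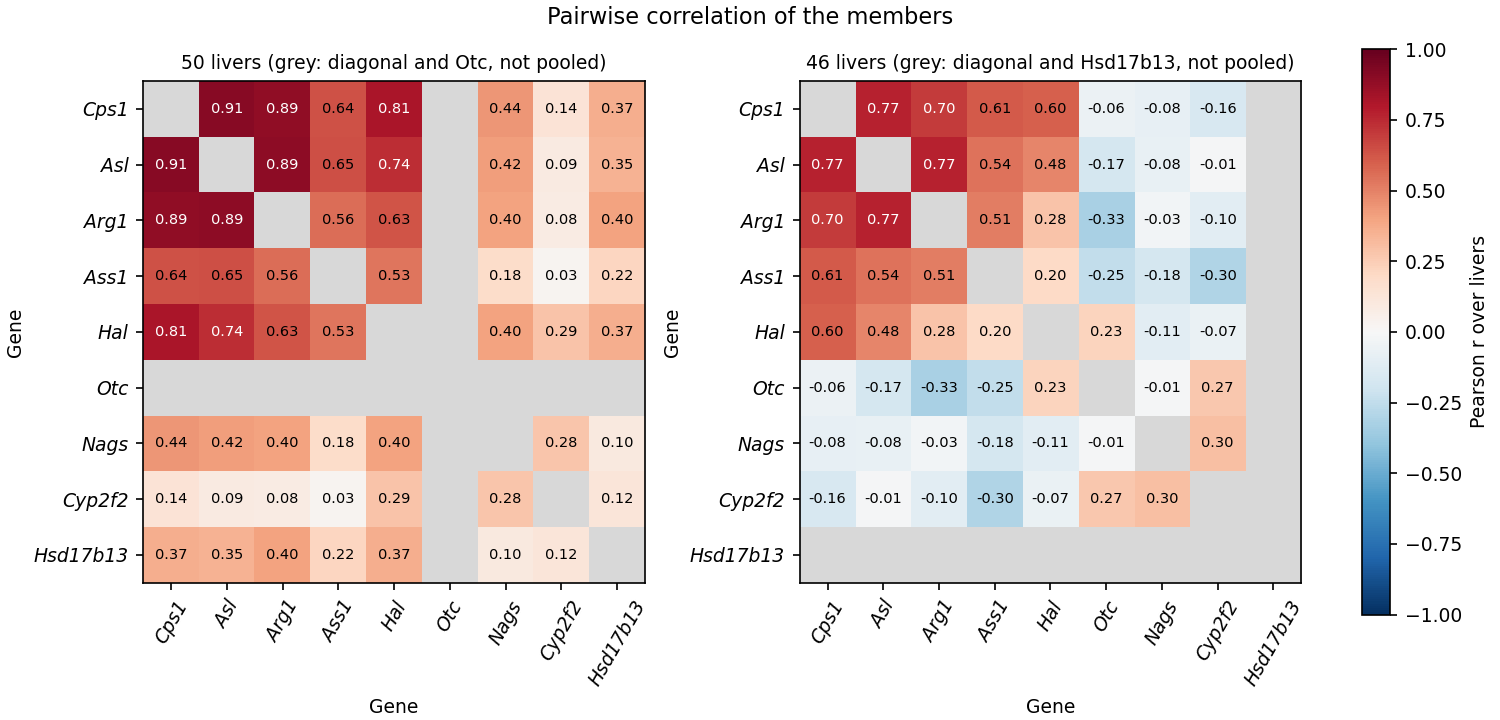
Pearson r of each pair of genes over 50 livers (left) and over the 46 livers left after the 4 that stood apart were removed (right); red is positive and blue negative. Grey rows mark Otc over 50 and Hsd17b13 over 46 livers, whose values fell into separate clusters. The block of Cps1, Asl, Arg1 and Ass1 stays at 0.51 or above in the right panel.

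Nags, whose product activates Cps1, had no called partner among the members over 46 livers. Its r with Cps1 was 0.44 over 50 livers (permutation p = 0.00242) and -0.082 over 46 (permutation p = 0.587), and 0.0094 over 50 once the 2 livers farthest from the Cps1 median were left out. In the fit on Nags 4 of 8 members rose over 50 livers (17.0% of genes higher) and 0 of 8 passed over 46 (limma; 9.51%; 1 of 8 at an unadjusted p under 0.05). The genes that rose with Nags over 46 livers included the hepatocyte transcription factors Cebpa (r = 0.69, limma adjusted p = 7.16e-05) and Hnf4a (r = 0.53, limma adjusted p = 0.00917). They also included Rnf43 (0.62), Tbx3 (0.59) and Axin2 (0.47), which respond to Wnt signalling around the central vein. Of 23 pericentral genes tested 4 passed over 46 livers, where 9.51% of all genes were called in either direction. Whether the list differs from other genes was not tested. Over 50 livers Cebpa, Hnf4a, Rnf43, Tbx3 and Axin2 rose with Nags as well, and 17 of the 23 pericentral genes did. Pck1 and G6pc of gluconeogenesis (r = -0.55 and -0.42), their coactivator Ppargc1a (-0.43) and the arginine transporter Slc7a2 (-0.41) fell as Nags rose over 46 livers. Over 50 livers none of these 4 passed with Nags, and their r turned to 0.13, 0.093, 0.16 and 0.089.

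Of the later enzymes of histidine breakdown, Amdhd1 and Ftcd rose with Hal over both 50 and 46 livers. Urocanase (Uroc1), which acts directly after Hal, rose with it over 50 livers (r = 0.81, limma adjusted p = 5.32e-11) and missed the threshold over 46 (r = 0.48, limma adjusted p = 0.0721). The genes nearest to Hal over 50 livers were Ftcd (r = 0.93), Amdhd1 (0.90) and Upb1 of pyrimidine breakdown (0.89), and over 46 livers Amdhd1 (0.76, limma adjusted p = 2.71e-06) and Ftcd (0.73, limma adjusted p = 7.76e-05). In the fit on Hal 7 of 8 members rose over 50 livers (21.5% of genes higher) and 1 of 8 over 46 (0.514%), Cps1, with r = 0.60. Of the 23 other nitrogen genes tested, 21 rose with Hal over 50 livers and 6 over 46.

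Cyp2f2 passed with Otc alone among the members over 50 livers, a count at the share of all genes (1 of 8, 12.5% of genes higher). Over 46 livers it passed with 0 of 8 (limma, 0.144%, 2 of 8 at an unadjusted p under 0.05). Its r with Cps1, Asl, Arg1 and Ass1 was 0.14, 0.088, 0.083 and 0.026 over 50 livers and -0.16, -0.012, -0.10 and -0.30 over 46. Of the 46 livers, animals 179, 229, 126 and 142 were lowest for Cyp2f2, at 7.98, 8.16, 8.17 and 8.20, and their Cps1 values, 12.01, 12.44, 12.21 and 12.19, lay within the range of the rest. The carboxylesterase Ces1c was its nearest gene over both 50 (r = 0.80) and 46 livers (r = 0.66). Cyp3a44 (0.78) and Cyp3a16 (0.77), 2 further cytochrome P450 genes, followed over 50, and over 46 their r was 0.55 and 0.49.

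Hsd17b13 had a spread of another kind. Over the 46 livers its values fell into separate clusters, 25 livers up to 9.52 and 21 from 9.75 upward, so no r over 46 is given. The BIC gain there was 10.7, just over the 10 required. Over 50 livers it was 3.08, and no separate clusters were found. Slopes of or on Hsd17b13 over 46 livers pool both clusters. It passed with 0 of 8 members over 50 livers (limma; 0.108% of genes called; 5 of 8 at an unadjusted p under 0.05) and 0 of 8 over 46 (0.0361%; 0 of 8 at an unadjusted p under 0.05). The genes that did pass lay on its own chromosome more often than the tested genes did, an observation made after the values were seen: 6 of 12 over 50 livers and 4 of 4 over 46, where 6.55% of tested genes with a known chromosome lay there. For Asl, which lies on the same chromosome, the share of called genes there was 6.51% over 50 livers and 8.76% over 46. Of the 4 genes called over 46 livers, Ociad2, Albfm1 and Zfp605 were called over 50 livers too, and Gpat3 was not. Over 46 livers, Gpat3, an acyltransferase of lipid synthesis with 37 RefSeq genes between it and Hsd17b13, fell by 0.28 ± 0.05 per SD of Hsd17b13 (SE; limma adjusted p = 0.00561), and over 50 livers its slope was -0.19 ± 0.05 (limma adjusted p = 0.10). Ociad2 rose by 0.38 ± 0.07 (limma adjusted p = 0.0259), Albfm1 by 0.25 ± 0.05 (0.0306), and Zfp605 fell by 0.15 ± 0.03 (0.0388). Zfp605, Albfm1 and Ociad2 lay farther off than Gpat3, with 182, 249 and 473 genes between them and Hsd17b13, of 2747 on the chromosome. For Glt1d1, on the same chromosome and called over 50 livers but not over 46, there were 653. The mice are backcross animals, and their genotypes along the chromosome were not analysed here.

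**Figure D4:**
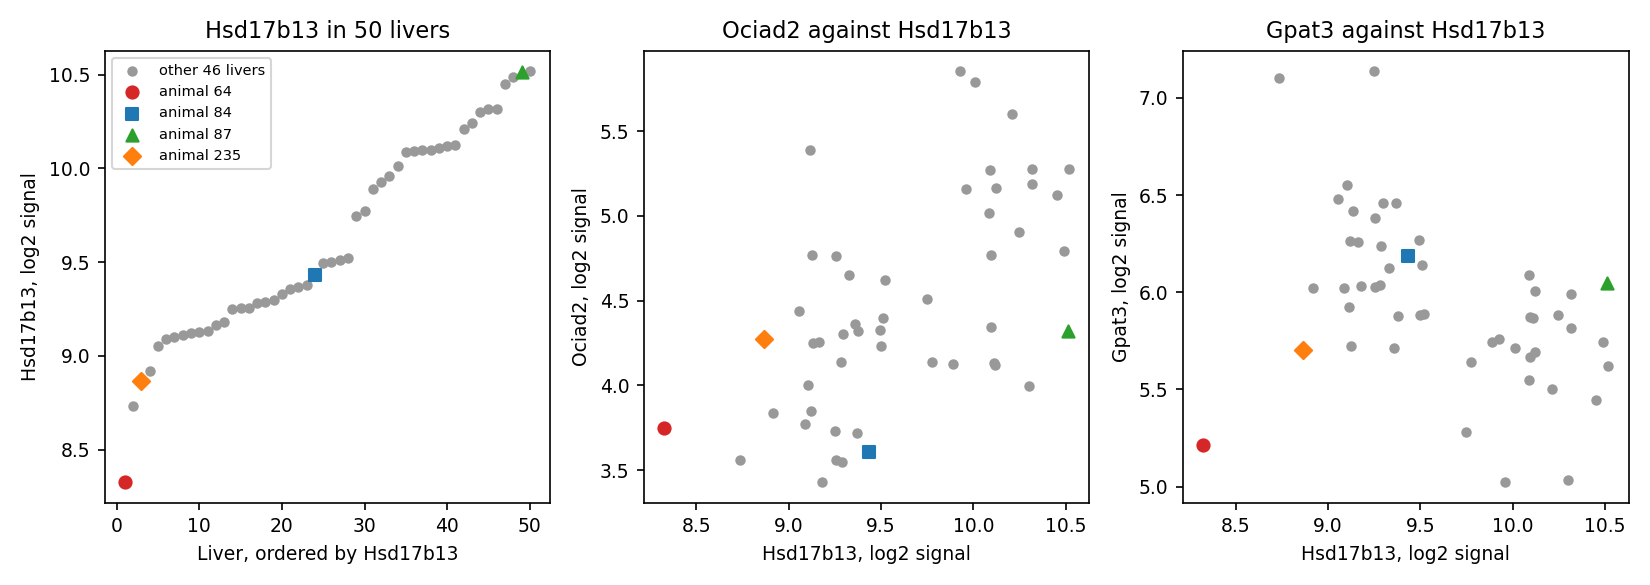
Left, the log2 signal of Hsd17b13 in 50 livers in rising order, with a gap between 9.52 and 9.75. Middle and right, Ociad2 and Gpat3 of the same chromosome against Hsd17b13, 1 point per liver; Ociad2 rose with Hsd17b13 over 50 and 46 livers, whereas Gpat3 fell with it over 46 livers and missed the threshold over the 50 plotted. Animal 64 has the lowest Hsd17b13.

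As a readout of zonation, the members were then fitted on a pericentral score, the mean standardised value of 25 measured genes of the central vein, among them Glul, Cyp2e1 and Axin2. Periportal and pericentral genes did not run against each other over the 50 livers. Over 50 livers 8 of 9 members were higher with the score and 0 lower, where 25.1% of all genes passed as higher. Slopes ran from 0.15 ± 0.05 for Arg1 to 0.51 ± 0.11 for Cyp2f2, and Hsd17b13 missed the threshold at 0.080 ± 0.074. Over 46 livers 4 of 9 had an unadjusted p under 0.05 and 1 of 9 passed, a count near the share of all genes (11.5% higher). That gene was Nags, with a slope of 0.14 ± 0.04 (SE; r = 0.51, permutation p = 0.00018, limma adjusted p = 0.00413), and its r within the 4 stretches was 0.88, 0.49, 0.52 and 0.34. Otc (0.091 ± 0.036, limma adjusted p = 0.0686) and Cyp2f2 (0.22 ± 0.09, limma adjusted p = 0.0965) had positive slopes that missed the threshold. Cps1 stood at 0.014 ± 0.027, Asl at -0.012 ± 0.047, Arg1 at -0.045 ± 0.034 and Hsd17b13 at -0.14 ± 0.07. Animals 64 and 235 had pericentral scores of -2.68 and -2.15, against -0.70 to 0.69 in the 46 livers, and without animal 64 alone 5 of 9 members passed.

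**Figure D5:**
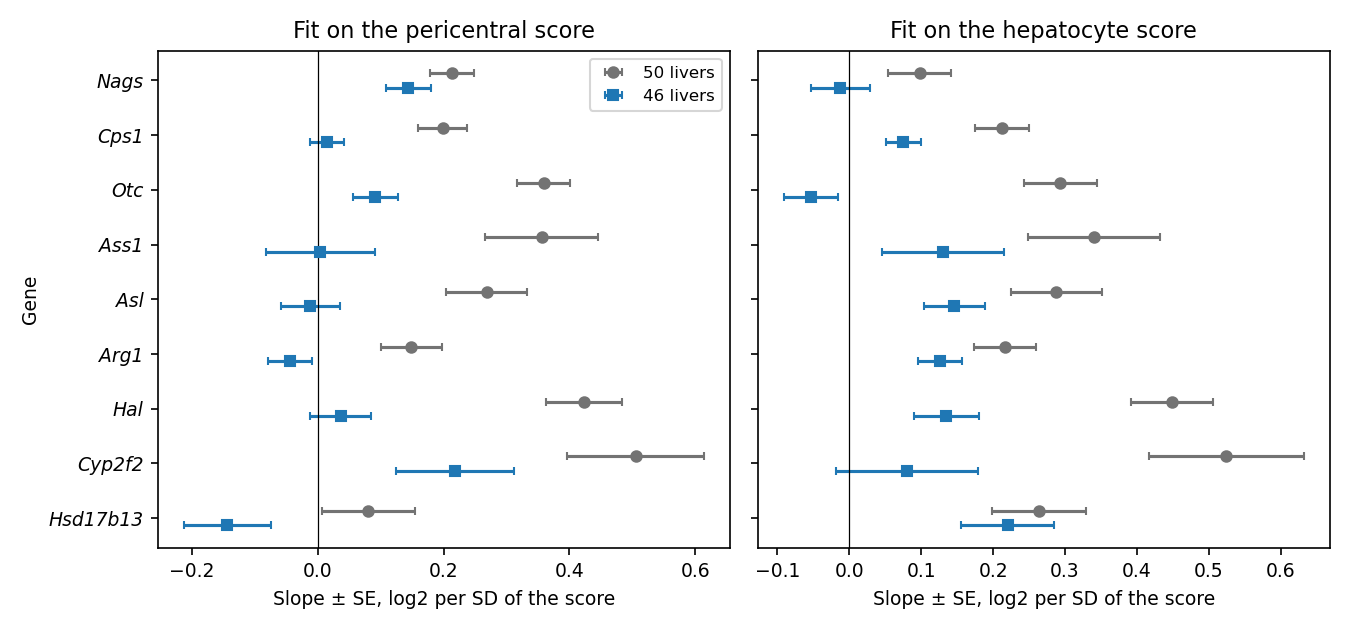
Slope of each gene, in log2 per SD of the score, on the pericentral (left) and hepatocyte (right) score, with bars of 1 standard error; grey circles are fits over 50 livers and blue squares fits over 46. On the pericentral score 8 of 9 genes pass over 50 livers. Over 46 livers Nags is the gene that passes, a count near the share of all genes.

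The genes also followed the hepatocyte score. Over 50 livers 8 of 9 passed, all higher (20.5% of genes higher), and over 46 livers 3 of 9 did (3.26%): Arg1 (slope 0.13 ± 0.03, r = 0.54, limma adjusted p = 0.0088), Asl (0.15 ± 0.04, r = 0.45, limma adjusted p = 0.0291) and Hsd17b13 (0.22 ± 0.06, limma adjusted p = 0.0316). Cps1 missed the threshold over 46 livers at 0.075 ± 0.025 (r = 0.43, limma adjusted p = 0.0574). On the score of fasting genes, which holds Pck1, Tat and Ppargc1a, 7 of 9 passed over 50 livers, all higher (15.1%), and 0 of 9 over 46 (limma; 2.09%; 3 of 9 at an unadjusted p under 0.05). On the acute phase score Arg1 rose over 50 livers (1 of 9; 3.78%), and over 46 livers Otc fell, with a slope of -0.14 ± 0.03 (1 of 9; 4.04%; limma adjusted p = 0.00398). On the neutrophil score Otc, Nags and Cyp2f2 were lower over 50 livers (3 of 9, 14.5%). Over 46 livers Otc was lower, with a slope of -0.14 ± 0.03 (limma adjusted p = 0.0032). That count, 1 of 9, was near the share of all genes (10.7% lower). Asl, Ass1 and Nags were lower with the macrophage score over 50 livers (3 of 9; 9.66%), and 0 of 9 passed over 46 without animal 235 and the other 3 (limma; 11.3%; 1 of 9 at an unadjusted p under 0.05). Hsd17b13 rose with the endothelial score over 50 (1 of 9; 4.05%) and 46 livers (6.22%). The stellate (6.48% of genes called), cholangiocyte (1.04%), lymphocyte (7.93%) and acinar (0.234%) scores called 0 of 9 members each over 50 livers (limma; 3, 1, 1 and 0 at an unadjusted p under 0.05). Over 46 livers they again called 0 of 9 each (limma; 3.9%, 2.16%, 7.91% and 0.397% of genes; 1, 0, 1 and 0 at an unadjusted p under 0.05). The array median level was reached by 14 of 14 macrophage markers and by 5 of 14 neutrophil markers. The part of these cells in the members' levels was not tested. On the animal number, the sole number that differed between mice in the labels, 0 of 9 passed over 50 livers (limma; 9.30%; 1 of 9 at an unadjusted p under 0.05), and over 46 livers Hsd17b13 rose (slope 0.20 ± 0.07, 5% of genes higher, limma adjusted p = 0.0327).

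Other genes of amino acid and nitrogen handling went with the core enzymes. For the counts below, 18.4% of all genes rose in the fit on Cps1 over 50 livers and 1.15% over 46. Whether these lists differ from other genes was not tested. Of 27 listed genes 23 were measured, and over 46 livers 5 of the 23 rose with Cps1 and 0 fell: Got1, the cytosolic aspartate aminotransferase (r = 0.70), Slc7a2 (0.63), the tyrosine aminotransferase Tat (0.60), the ornithine carrier Slc25a15 (0.53) and Slc38a4 (0.50). Got1, Slc7a2 and Tat also rose with Ass1 (r = 0.64, 0.65 and 0.58), with Asl (0.64, 0.61 and 0.56) and with Arg1 (0.59, 0.61 and 0.50). Tat belongs to the hepatocyte and fasting lists as well. Over 50 livers 21 of the 23 rose with Cps1, with a median r of 0.63 against 0.03 for all genes fitted; over 46 livers the median was 0.25 against 0.02. Of 17 other periportal genes, 11 rose with Cps1 over 50 livers and 1, the lyase Etnppl (r = 0.56), over 46. Of 23 pericentral genes tested, 13 rose with Cps1 over 50 livers and 1 over 46, the ornithine aminotransferase Oat (r = 0.55), which acts on ornithine, as Otc does. Of 12 regulators tested, 7 rose and 1 fell with Cps1 over 50 livers and 0 passed over 46 (limma; 4 at an unadjusted p under 0.05).

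The genes with the most similar levels were named from the 50 livers. Mat1a, which makes S-adenosylmethionine in hepatocytes, was nearest to Cps1 (r = 0.91), Asl (0.92) and Arg1 (0.87), and its r with them over 46 livers was 0.65, 0.76 and 0.64. Tat (0.89) and Gm5424 (0.89) followed for Cps1, Slc37a4 (0.88) and Tdo2 (0.86) for Asl, and Acox2 (0.82) and Kif21a (0.82) for Arg1. Over 46 livers these 6 values were 0.60, 0.72, 0.82, 0.66, 0.52 and 0.54. Mat1a did not stay nearest over 46 livers. The nearest gene there was Tdo2 (0.73) for Cps1, Slc37a4 (0.82) for Asl and Fkbp5 (0.70) for Arg1. For Ass1 the nearest genes over 50 livers were Slc7a2 (0.72), Tle1 (0.71) and Pck1 (0.71), which lies on the chromosome of Ass1. Over 46 livers their r was 0.65, 0.51 and 0.61. For Nags they were Mavs (0.76), Glyctk (0.76) and Rgl3 (0.76), and over 46 livers 0.73, 0.73 and 0.66. For Hsd17b13 they were Glt1d1 (0.62), Ociad2 (0.58) and Tpmt (0.58), of which Ociad2 alone passed over 46 livers. For Otc they were Aadac, Bbox1 and Cyp2b9, and over 46 livers Aadac (0.81) and Cyp2b9 (0.80) were again the 2 nearest. The mean standardised profile of the 9 members was nearest to Hpd and Fah of tyrosine breakdown (0.91 and 0.90), with Aldh1l1 (0.90), Mtarc1 (0.90) and Abca6 (0.90). Over 46 livers its nearest genes were Gm5424 (0.73), Sfxn2 (0.70), Slc37a4 (0.70), Rbks (0.65) and Ftcd (0.65). The points of each such r are livers, each with its own array, and share the array scaling and, over 50, the 4 livers that stood apart.

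When Ass1 was taken as the predictor over 46 livers, 32 genes passed and all rose with it, and 27 of the 32 also rose over 50 livers. Besides Got1, Slc7a2, Tat, Cps1 and Asl they included Pck1 (r = 0.61), Ppargc1a (0.58), Tdo2 (0.56), Gadd45g (0.59), Ddit4 (0.52) and the amino acid transporter Slc38a2 (0.57), named after their values were seen. Of these 6, Ddit4 missed the threshold over 50 livers (limma adjusted p = 0.0572). The lowest adjusted p of the 32 belonged to a microRNA gene, Mir344d-2 (r = 0.71, limma adjusted p = 8.76e-05). Acmsd, Ctcflos, Lncpint and Lpl were among the others that passed. Ass1 itself missed the threshold on the fasting score over 46 livers, with a slope of 0.24 ± 0.08 (limma adjusted p = 0.121).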

How the data were processed

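Liver RNA of 50 mice was hybridised to 1 array each. Per the submitters' processing notes, the authors made the deposited log2 signals with RMA in Affymetrix Expression Console 1.4.1, which corrects background, equalises arrays by quantiles and summarises probes, so overall differences in RNA amount are removed and probe sets cannot be ranked by amount. The labels name liver, while the extraction protocol in the labels speaks of purified cells. The genome build was not given in the sources used here. Of 41345 probe sets, 23521 carried 1 gene symbol, 1814 several and 16010 none in the platform annotation. Arrays have no read depth; precision is limited by how many arrays there are. Array medians lay between 3.27 and 3.34.

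Genes at or above the median level (11090) were fitted with limma 3.58.1 in R 4.3.3 (lmFit, eBayes with trend) and adjusted by Benjamini-Hochberg over all genes fitted. A list score is the mean of values standardised over the livers used. Relations were tested by 100000 two-sided permutations (Python 3.11.15, numpy 2.4.6, scipy 1.17.1). Clusters came from a normal mixture in scikit-learn 1.9.0, taken as separate where the BIC improved by over 10, means lay 4 SD and 0.5 log2 apart, and each held 5 livers. The fits recovered known slopes when tested on simulated data. RefSeq of assembly GRCm38.p6 served for gene names and gene order only, and 22139 named genes matched. No sequences were given, so none are printed, and the planned promoter motif count was not run.

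Animal numbers show 50 separate mice, and each p-value measures the spread between single arrays. The members and lists were chosen with earlier results of these data known. Genes named are the members, those of the lists, the 3 nearest to each member, the 5 nearest to the mean profile and the most variable of each list; exceptions are stated. Alternatives changed the probe set, level filter, scaling, ranks, covariates, moderation and livers. Leaving out single livers that stood apart, and Gm5424 in place of Ass1, were added after the data were seen.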

Additional observations from a re-analysis of the deposited data

How the results depend on the processing

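Rank values, the first principal component or the hepatocyte score as covariate, and the 4 livers that stood apart changed the counts of members called; the cause was not tested. The 42 ordered pairs became 14 with ranks, 17 with the first component, 17 with the hepatocyte score, 20 with the pericentral score (19 higher, 1 lower), 14 without the 4 livers, 14 without 10 livers apart or far out on a cell score (13 higher, 1 lower), and 22 without animal 64. On the pericentral score, 8 members became 3 with ranks, 0 with the first component, 3 with the hepatocyte score, 1 without the 4 or the 10 livers and 5 without animal 64. On the hepatocyte score, 8 became 3 with ranks, 4 with the first component, 3 without the 4 or the 10 livers and 5 without animal 64. On the fasting score, 7 became 0 with ranks, 2 with the first component, 0 with the hepatocyte score, 0 without the 4 livers, 1 without the 10 (Nags, lower) and 4 without animal 64. On the acute phase score, 1 became 0 with ranks, with the hepatocyte score and without animal 64. On the animal number, 0 became 1 with the hepatocyte score (Otc, lower), 1 without the 4 livers (Hsd17b13, higher), 1 without the 10 (Otc, lower) and 1 without animal 87 or animal 235 (Hsd17b13, higher). The mean r of 0.42 became 0.16 with the first component, 0.13 without the 4 livers and 0.11 without the 10. The SD of each member moved in 1 to 6 of 13 alternatives; without the 4 livers those of Cps1, Otc, Asl, Arg1 and Hal fell by over 1.5 times. Slopes on the pericentral score changed sign for Otc (-0.068) and Hal (-0.13) with the first component. For Asl they did without the 4 (-0.012) and the 10 livers (-0.049). For Arg1 they did with ranks (-0.11), the first component (-0.0066), without the 4 (-0.045), the 10 (-0.078) and animal 64 (-0.016). For Hsd17b13 they did with ranks (-0.24), the first component (-0.35), the hepatocyte score (-0.16), without the 4 (-0.14), the 10 (-0.21) and animal 64 (-0.039). With only the highest levels kept, above the upper quartile, Ass1 was not fitted. Promoter motifs were not run, since no sequences were given. No paired analysis was possible because the labels hold 1 group.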
